A study of Mus musculus with 6 samples.

Results

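The 9 genes for enzymes and cofactors that write, copy and remove DNA methylation were followed in germline stem (GS) cells, cultured mouse spermatogonia that had been stored frozen in space or on Earth. They were chosen by gene name from the table of raw counts: Dnmt1, Uhrf1, Dnmt3a, Dnmt3b, Dnmt3l, Tet1, Tet2, Tet3 and Tdg. Each name matched 1 row, which gave 9 of the 32285 gene identifiers in the table.

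DNA methylation is a methyl group on cytosine, mostly where a G follows (CpG). DNMT1, brought to freshly copied DNA by UHRF1, renews the mark after each cell division, whereas DNMT3A and DNMT3B, helped in germ cells by the inactive cofactor DNMT3L, place it anew. The TET enzymes oxidise methylcytosine, and TDG cuts out the oxidised base so that repair restores a bare cytosine. In the male germ line, methylation is erased in the embryo and set again before birth, and spermatogonia then carry it through many divisions.

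The GS cells were established from testes of DBA/2 mice aged 2 to 3 days that carried the transgene Tg14(act-EGFP-OsbY01), first made on C57BL6, so that both groups shared strain, genotype and tissue. They were grown on mouse embryonic fibroblast feeders with GDNF and FGF2. Cells were kept frozen for 6 months on the International Space Station (Space, 3 libraries) or on Earth (Ground, 3 libraries), and RNA was taken the day after thawing, before any passage. The study also measured promoter methylation in GS cells at a later time, and those data were not analysed here. Groups were taken from the library titles, but the treatment label of all 6 libraries gives the opposite group. The column names follow the titles, and every direction given here would turn round if the treatment label were right. The series describes 3 biological replicates per group, the study calls them lines, and no label says which libraries came from separate cultures, so p-values measure only the spread between these libraries.

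Depth ranged from 19015985 to 24110916 counts per library. Values are CPM, counts scaled to a common library size after TMM scaling, always given in the order of libraries 1, 2 and 3 of a group, and 3 counts correspond to 0.120 to 0.160 CPM. Mitochondrial genes took 2.51% to 11.5% of the counts, with the highest share in Ground-2. All 12 markers of undifferentiated spermatogonia were detected, with a summed level of 2453 to 2879 CPM in Ground and 2526 to 2888 CPM in Space. The 7 markers of differentiating spermatogonia were detected too, and summed to 637 to 675 CPM in Ground and 641 to 697 CPM in Space. The 13 markers of fibroblasts, the feeder type, summed to 965 to 1007 CPM in Ground and 808 to 1018 CPM in Space, and 12 of the 13 had a lower mean in Space; the part of feeder RNA in the differences was not tested. Of the markers of Leydig cells and macrophages, Hsd3b1 was at 0. Cyp11a1, Cyp17a1, Insl3, Adgre1, Csf1r, Itgam and Ptprc stayed under 1.04 CPM in every library. The other markers, Star and Cd68, brought the sums of the Leydig and macrophage lists to 4.16 to 5.04 and 14.4 to 22.7 CPM. The 5 Sertoli cell markers summed to 24.6 to 28.0 CPM, with 3 of them under 1 CPM throughout.

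In both groups the maintenance genes Uhrf1 and Dnmt1 stood highest per kb of exon, and Tet1 and Tet2 lowest. None of the 9 genes passed the test, and the best supported difference was a 1.76-fold higher Tet2 in Space, from 21 to 46 counts per library. In edgeR's quasi-likelihood test with Benjamini-Hochberg adjustment over 15104 genes, 0% of all genes and 0 of the 9 were past an adjusted p of 0.05. Every one of the 9 had an adjusted p of 0.9999, the lowest of any gene. At an unadjusted p under 0.05, 1 of the 9 was higher in Space, against 0.159% of all genes, and 0 were lower, against 0.45%. DESeq2 and limma-voom also gave 0 of the 9 past the adjusted threshold, and 0 at an unadjusted p under 0.05. The 3 Space values of 1 gene, Tet2, all lay above the 3 Ground values, where 1.61% of all genes did so and 1.98% did the reverse. The estimated difference was positive in 4 genes and negative in 5, or positive in 7 and negative in 2 with total-count scaling, with a median log2 fold change of -0.0050 beside -0.0020 over all genes tested.

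**Figure D1:**
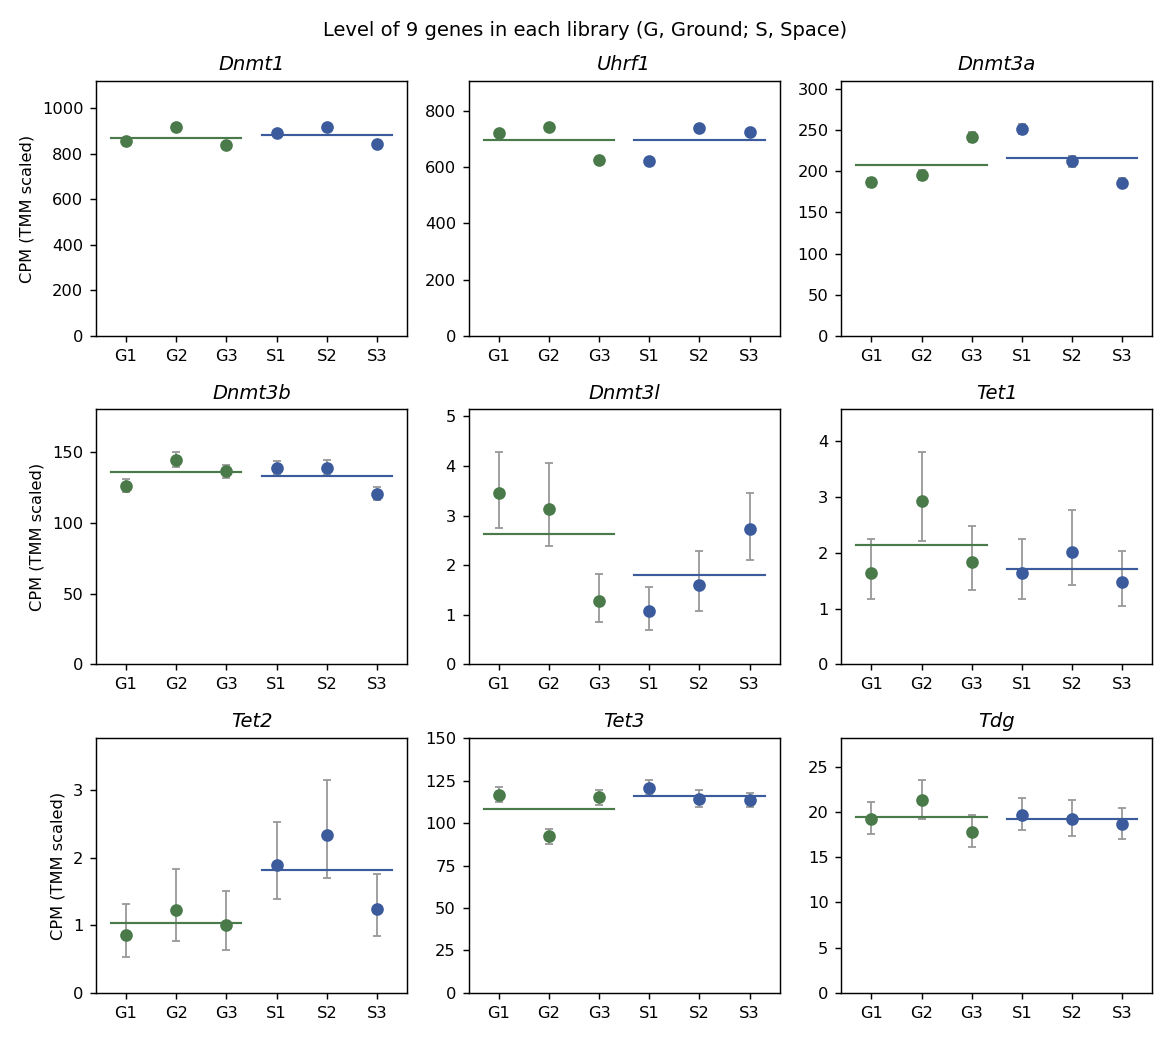
Level of each gene (CPM after TMM scaling, axes from 0) in the 3 Ground (green) and 3 Space (blue) libraries, with exact Poisson 95% intervals of the counts as bars and group means as lines. The Ground and Space points overlap in 8 panels, and in the Tet2 panel the lowest Space point, 1.24 CPM, sits just above the highest Ground point, 1.22 CPM.

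Dnmt1, the maintenance methyltransferase, lies on chromosome 9 at 20907209 to 20959888, minus strand (ENSMUSG00000004099; all positions are GRCm38). Its level was 856, 919 and 837 CPM in Ground and 892, 917 and 843 CPM in Space. The groups overlapped throughout, with the 6 libraries within 1.10-fold of each other. The mean was 871 ± 42.7 CPM in Ground and 884 ± 37.7 CPM in Space (SD, n = 3 each). The log2 fold change of 0.021 (SE 0.062) had a 95% interval from -0.12 to 0.17, which spans folds of 0.918 to 1.12.

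Uhrf1 encodes the protein that recognises hemimethylated DNA behind the replication fork and recruits DNMT1. It lies on chromosome 17 at 56303321 to 56323486, plus strand (ENSMUSG00000001228). The stretch upstream of a start site inside this interval, chr17:56304063-56304312 of the plus strand, is shown for the highest of the 9 genes per kb of exon, with CCGG in capitals. CCGG is the site of MspI, the enzyme that reduced representation bisulfite sequencing uses to sample CpG-rich DNA. This and the 2 windows printed further on touch no GENCODE M21 exon.
Uhrf1: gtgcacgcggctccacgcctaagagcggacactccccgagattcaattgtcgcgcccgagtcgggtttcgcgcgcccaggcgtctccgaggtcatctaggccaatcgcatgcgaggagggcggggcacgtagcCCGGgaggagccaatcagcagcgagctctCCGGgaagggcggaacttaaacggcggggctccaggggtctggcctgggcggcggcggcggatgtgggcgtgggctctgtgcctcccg
The window holds 30 CpG and 2 CCGG, and 5.94% of the 32851 promoters in RefSeq (GRCm38.p6, 250 bases upstream of each start) hold at least 30 CpG, read on both strands since CG and CCGG are the same on each. Another RefSeq window of Uhrf1, chr17:56303087-56303336, is less rich, with 10 CpG, and 37.8% of the promoters hold at least as many.

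Expression of Uhrf1 was 722, 742 and 627 CPM in Ground. In Space-1 to Space-3 it was 622, 738 and 724 CPM. Ground-3 and Space-1 were the low libraries, 1 in each group, and the other 4 lay close together. The means were 697 ± 61.7 CPM in Ground and 695 ± 63.7 CPM in Space (SD, n = 3 each). Its log2 fold change was -0.0050 (SE 0.091, 95% interval -0.22 to 0.21), so a fold below 0.861 or above 1.15 lay outside the interval. The pooled SD within groups, 0.133 on the log2 scale, was far above the 0.0116 that counting error alone gives at 15474 counts per library.

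Dnmt3a, a de novo methyltransferase, lies on chromosome 12 at 3806007 to 3914443, plus strand (ENSMUSG00000020661). Its expression was 186, 195 and 241 CPM in Ground and 251, 212 and 186 CPM in Space. Space-1 and Ground-3 were the high libraries here, and the lowest values were equal to 3 digits in Ground-1 and Space-3. The means of 208 ± 29.6 CPM in Ground and 216 ± 33.0 CPM in Space (SD, n = 3 each) differed by less than either SD. On the log2 scale the fold change was 0.060 (SE 0.13, 95% interval -0.25 to 0.37). Its pooled SD within groups of 0.209 on the log2 scale was the widest among the 6 genes with at least 300 counts per library on average. The antisense gene Dnmt3aos shares 133 exonic bases with it and had 0 to 2 counts per library.

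Dnmt3b, the other active de novo methyltransferase, lies on chromosome 2 at 153649450 to 153687730, plus strand (ENSMUSG00000027478). It was measured at 126, 145 and 136 CPM in Ground and at 139, 139 and 121 CPM in Space. Neither group stood above the other, and Ground-1 and Space-3 were the low libraries. The means were 136 ± 9.23 and 133 ± 10.5 CPM (SD, n = 3 each), with a log2 fold change of -0.031 (SE 0.079, 95% interval -0.21 to 0.15). Dnmt3c, a rodent copy of Dnmt3b that methylates young retrotransposons in the fetal male germ line, had 6 counts in all 6 libraries together and was too low to test.

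Dnmt3l, the catalytically inactive partner of DNMT3A and DNMT3B, lies on chromosome 10 at 78041947 to 78063622, plus strand (ENSMUSG00000000730). Its window chr10:78049592-78049841 of the plus strand is 1 of 3 in RefSeq for this gene. It is shown because Dnmt3l varied most between libraries and because, unlike the Uhrf1 window printed above, it is poor in CpG. It has no CCGG to set in capitals.
Dnmt3l: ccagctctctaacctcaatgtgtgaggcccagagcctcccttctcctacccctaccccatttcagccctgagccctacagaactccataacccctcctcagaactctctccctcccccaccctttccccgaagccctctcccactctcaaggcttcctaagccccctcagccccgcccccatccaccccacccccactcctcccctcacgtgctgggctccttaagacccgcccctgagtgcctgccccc
It holds 4 CpG, and 62.2% of the RefSeq promoters hold at least as many.

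Dnmt3l had few counts, 84, 59 and 29 in Ground and 26, 30 and 68 in Space. In CPM these were 3.46, 3.14 and 1.27 in Ground and 1.07, 1.60 and 2.72 in Space. Both groups held high and low libraries: Ground-1, Ground-2 and Space-3 were high, and Ground-3, Space-1 and Space-2 were low. The highest library was 3.23-fold above the lowest, and the pooled SD within groups, 0.704 on the log2 scale, exceeded the 0.205 of counting error. Group means were 2.62 ± 1.18 CPM in Ground and 1.80 ± 0.842 CPM in Space (SD, n = 3 each). The log2 fold change of -0.54 (SE 0.46) had a 95% interval from -1.60 to 0.53, wide enough to hold folds from 0.329 to 1.44. Without Space-3 the estimate was -0.98, and without Space-1 it was -0.26. Aire, which overlaps it on the other strand by 67 exonic bases, had 0 to 2 counts per library.

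Markers of undifferentiated spermatogonia moved in both directions beside Dnmt3l, as 4 of the 12, picked after their values were seen, show. Bcl6b, a GDNF-responsive repressor needed for stem cell maintenance, was at 364, 222 and 59.1 CPM in Ground and at 57.6, 218 and 371 CPM in Space. Etv5, a transcription factor of the same response, was at 259, 202 and 93.0 CPM in Ground and 99.1, 195 and 262 CPM in Space. Both were lowest in Ground-3 and Space-1, the libraries lowest for Dnmt3l and Uhrf1 and highest for Dnmt3a. Nanos2, an RNA-binding protein of the stem cell state, was instead highest in those libraries, at 12.1 and 11.4 CPM against 4.78 to 6.39 CPM in the other 4. Dazl, a germ cell RNA-binding protein, was also highest there, at 947 and 964 CPM against 782 to 865 CPM, and any part of these markers in the spread was not tested. In bulk RNA, fewer cells expressing a gene and less of its RNA per cell cannot be told apart. Among 9510 genes of at least 10 CPM on average, the genes most like Dnmt3l over the 6 libraries were Lfng, Foxc2 and Procr. Their centred log2 CPM differed from that of Dnmt3l by a root mean square of 0.235, 0.253 and 0.267. The median over all genes compared was 0.645. Genes picked as the nearest lie below that median by selection, here and for Tet1 and Tet2 further on. Lfng, which modifies Notch receptors, was at 18.4, 14.8 and 7.50 CPM in Ground and 7.17, 12.9 and 17.6 CPM in Space.

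Tet1, a methylcytosine oxidase, lies on chromosome 10 at 62804570 to 62908996, minus strand (ENSMUSG00000047146). It was nearly silent, with 37 to 55 counts per library. The values were 1.65, 2.93 and 1.84 CPM in Ground and 1.65, 2.02 and 1.48 CPM in Space. Ground-2 stood above the rest and the other 5 were within the counting intervals of each other. The means were 2.14 ± 0.691 CPM in Ground and 1.72 ± 0.279 CPM in Space (SD, n = 3 each). The log2 fold change was -0.31 (SE 0.30, 95% interval -1.0 to 0.37), and without Ground-2, its highest library, it was -0.027. The genes nearest to Tet1 over the 6 libraries were Smtnl2, Optn and Fxyd6, with root mean square differences of 0.114, 0.125 and 0.142 log2 CPM against a median of 0.323. Optn, an autophagy receptor, was likewise highest in Ground-2, at 30.03 CPM against 17.1 to 26.8 CPM in the other libraries.

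Tet2, another enzyme of this family, lies on chromosome 3 at 133463679 to 133545139, minus strand (ENSMUSG00000040943). Its promoter window chr3:133544391-133544640, upstream of a RefSeq start site inside this interval, is read on the minus strand. It is shown because Tet2 had the largest difference between groups of the 9 genes. Its 4 CCGG are in capitals.
Tet2: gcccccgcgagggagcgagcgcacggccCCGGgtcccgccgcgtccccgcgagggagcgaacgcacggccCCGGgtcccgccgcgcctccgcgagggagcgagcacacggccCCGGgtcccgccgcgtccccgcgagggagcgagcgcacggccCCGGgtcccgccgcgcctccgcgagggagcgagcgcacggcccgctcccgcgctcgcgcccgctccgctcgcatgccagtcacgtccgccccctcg
With 51 CpG in 250 bases it is among the 0.067% of RefSeq promoters with at least that number, and 83.6% of its bases are G or C. The median promoter holds 6 CpG, and 47.1% hold a CCGG.

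Tet2 had 21, 23 and 23 counts in Ground and 46, 44 and 31 counts in Space. Scaled to library size these were 0.865, 1.22 and 1.01 CPM in Ground and 1.89, 2.34 and 1.24 CPM in Space. Every Space library was above every Ground library, but the gap between Ground-2 and Space-3 was only 1.22 against 1.24 CPM. The exact Poisson 95% intervals of those 2 libraries, 0.776 to 1.84 and 0.842 to 1.76 CPM, covered almost the same range, whereas that of Space-2, 1.70 to 3.15 CPM, lay above those of Ground-1, 0.535 to 1.32 CPM, and Ground-3, 0.639 to 1.51 CPM. Intervals cover counting error only.

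The mean of Tet2 was 1.03 ± 0.181 CPM in Ground and 1.83 ± 0.556 CPM in Space (SD, n = 3 each), from 67 and 121 counts in total. The log2 fold change was 0.82 (SE 0.32, 95% interval 0.070 to 1.57), a fold of 1.05 to 2.96. The unadjusted p in edgeR was 0.0358 and the adjusted p 0.9999, so the difference did not pass the test across all genes. It remained positive without any 1 library, between 0.61 without Space-2 and 1.04 without Space-3. The unadjusted p then ranged from 0.0137 to 0.132, and it was 0.0571 in DESeq2 and 0.0511 in limma-voom. Its antisense neighbour Gm42567 shares 43 exonic bases and had 0 or 1 count per library. The genes most like Tet2 were Tap1, She and Lamtor4, with root mean square differences of 0.321, 0.325 and 0.337 log2 CPM, not far below the median of 0.476 over all genes compared. Tap1, the peptide transporter of antigen presentation, was at 11.1, 16.5 and 14.6 CPM in Ground and 14.9, 19.1 and 13.5 CPM in Space, and its groups overlapped.

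Tet3, the only abundant TET gene, lies on chromosome 6 at 83362373 to 83459084, minus strand (ENSMUSG00000034832). Its level was 117, 92.1 and 115 CPM in Ground and 121, 114 and 113 CPM in Space. Ground-2 alone was low, and the other 5 libraries overlapped between groups. The means were 108 ± 13.8 CPM in Ground and 116 ± 3.94 CPM in Space (SD, n = 3 each). The log2 fold change was 0.10 (SE 0.094, 95% interval -0.11 to 0.32), and it was 0.0027 without Ground-2.

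Tdg, the glycosylase that excises oxidised methylcytosine, lies on chromosome 10 at 82629828 to 82650799, plus strand (ENSMUSG00000034674). Its level was steady, at 19.3, 21.3 and 17.8 CPM in Ground and 19.7, 19.2 and 18.6 CPM in Space. All 3 Space values lay inside the Ground range. The means were 19.5 ± 1.74 and 19.2 ± 0.545 CPM (SD, n = 3 each), and the log2 fold change was -0.019 (SE 0.10, 95% interval -0.25 to 0.21). Glt8d2 overlaps 6.83% of its exon sequence on the other strand, with 12 to 24 counts per library against 361 to 479 for Tdg, and whether the counting used strand is not given in the sources used here.

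**Figure D2:**
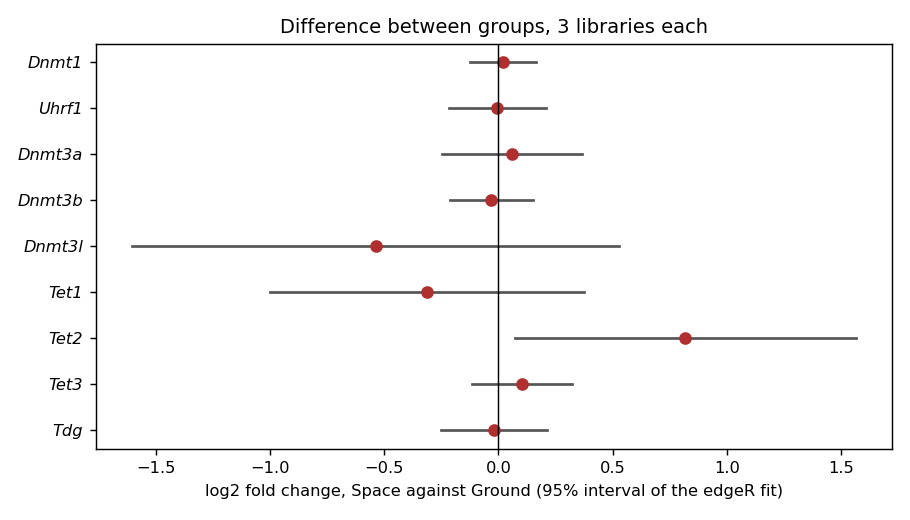
Log2 fold change of Space against Ground for each gene (points) with the 95% interval of the edgeR quasi-likelihood fit (lines), 3 libraries per group. The interval spans 0 for 8 genes and runs from 0.070 to 1.57 for Tet2, and the intervals of Dnmt3l, Tet1 and Tet2, each under 85 counts per library, are the widest.

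Per kb of exon, the 9 genes spanned more than 3 orders of magnitude in a nearly fixed order. Uhrf1 was highest at 163 ± 13.2 CPM per kb and Dnmt1 next at 119 ± 4.98 CPM per kb (SD over all 6 libraries, here and for the other levels per kb). Dnmt3b at 26.3 ± 1.76 and Dnmt3a at 12.7 ± 1.71 CPM per kb followed, then Tet3 at 6.71 ± 0.604 and Tdg at 3.60 ± 0.216 CPM per kb. Dnmt3l at 0.740 ± 0.343, Tet1 at 0.125 ± 0.0339 and Tet2 at 0.0847 ± 0.0338 CPM per kb were the low end. Each gene was above the next in 6 of 6 libraries, except that Tet1 was above Tet2 in 4 of 6, with a ratio of 0.943 to 2.61, and these last do not differ beyond their spread. The order rests on the length used: with coding length Dnmt3a, at 77.8 CPM per kb, came above Dnmt3b, at 52.0 CPM per kb, and with the longest transcript Tet2 came above Tet1.

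**Figure D3:**
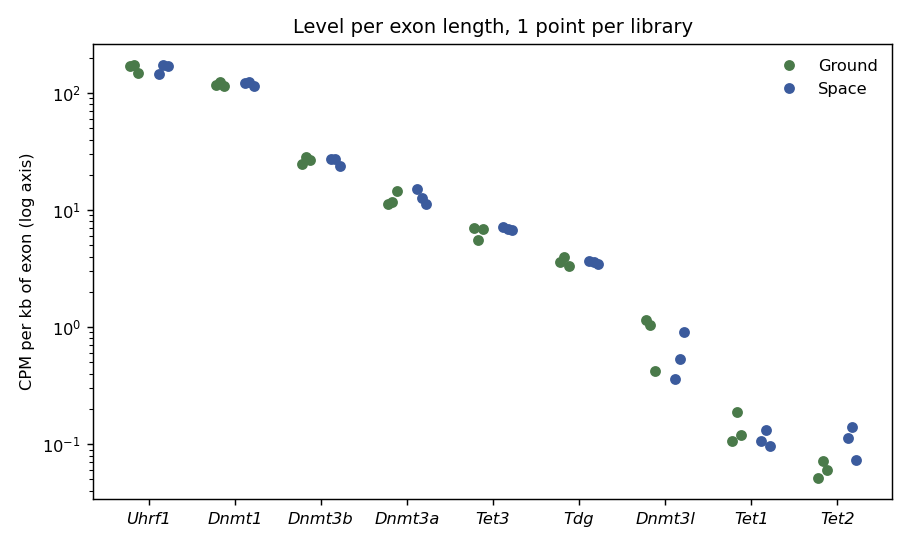
Level of the 9 genes per kb of exon (CPM per kb, log axis), 1 point per library, Ground green and Space blue. Maintenance genes sit at the top, Tet1 and Tet2 at the bottom, and the points of both groups overlap in each column but that of Tet2.

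Balances between the roles, as ratios of CPM per kb, mostly overlapped between the groups. Dnmt3a and Dnmt3b together reached 0.305 to 0.363 of Dnmt1 over the 6 libraries, and the TET genes together 0.0351 to 0.0470 of Dnmt1, Dnmt3a and Dnmt3b. Tet3 made up 95.5% to 97.8% of the summed TET level. The ratio of Dnmt3a to Uhrf1 was 0.0660, 0.0673 and 0.0986 in Ground and 0.104, 0.0735 and 0.0657 in Space, with 1 high library in each group. Only the ratio of Tet2 to Tet1 separated the groups among these, at 0.481, 0.383 and 0.502 in Ground and 1.05, 1.06 and 0.768 in Space. It was formed from under 60 counts per gene and library, shares the Tet2 counts described above, and was not tested on its own.

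The most alike library profiles over these genes lay across the groups, and the likeness was not particular to them. Deviations from group means over the most variable genes tested correlated at 0.63 between Ground-1 and Space-3, and at 0.60 between Ground-3 and Space-1. Over the 6 genes with at least 300 counts per library on average, the mean difference in log2 CPM was 0.031 between Ground-1 and Space-3 and 0.066 between Ground-3 and Space-1. Pairs of the same group differed by 0.10 to 0.224 and all pairs between the groups by 0.031 to 0.203, so the ranges overlapped. For Uhrf1, Ground-1 and Space-3 differed by 0.0042 log2, and Ground-3 and Space-1 by 0.012, in a range of 0.256 over the 6 libraries. For Dnmt3a these pairs differed by 0.0027 and 0.059 in a range of 0.435. For Dnmt3b they differed by 0.064 and 0.026 in a range of 0.260. For Tet3 they differed by 0.042 and 0.066, but its range of 0.389 came from the low value of Ground-2. Other pairs were closer for Tet3, among them Ground-3 and Space-2 at 0.010 and Ground-1 and Ground-3 at 0.018. Dnmt1 and Tdg did not share the likeness of Ground-1 with Space-3 and of Ground-3 with Space-1 in both pairs. Ground-3 and Space-1 differed by 0.091 for Dnmt1, in a range of 0.134, and by 0.144 for Tdg, in a range of 0.254. For Tet2, Space-3 was above Ground-1 by 0.48 and Space-1 above Ground-3 by 0.85. These pairs were picked from the values, no label ties them, and the sum of dividing-cell markers set the first pair apart. The 8 markers summed to 2665 CPM in Ground-1 and 2658 CPM in Space-3 but to 3131 to 3257 CPM in the other 4 libraries. Each marker was lower in both libraries of this pair, except Mcm5 and Rrm2. Mcm5 was at 421 and 425 CPM there but at 405 CPM in Ground-3, and Rrm2 was at 78.9 CPM in Space-3 but 78.5 CPM in Ground-3. The part of cell division in these patterns was not tested.

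**Figure D4:**
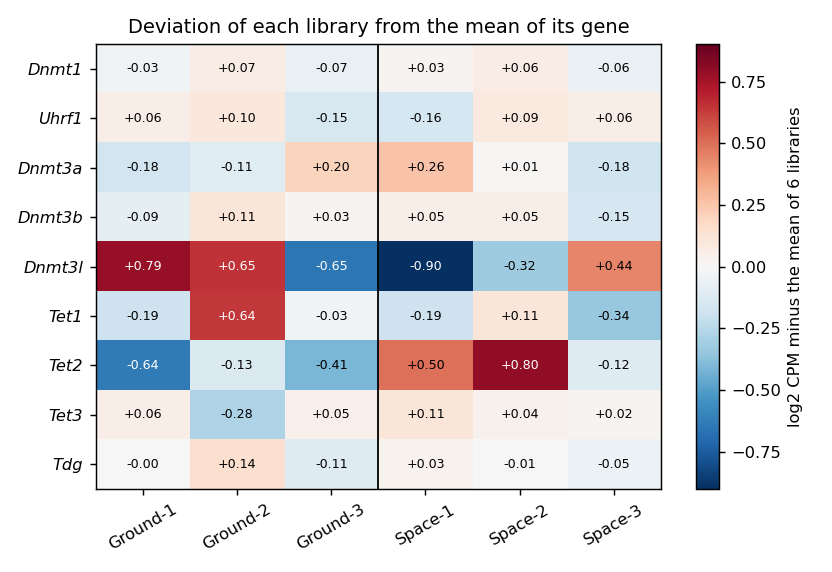
Deviation of each library from the 6-library mean of its gene, in log2 CPM (red above, blue below), with the vertical line between Ground and Space. Dnmt3l runs from -0.90 in Space-1 to 0.79 in Ground-1, Tet2 is the only row with a Ground side wholly below its Space side, and Dnmt1 stays within 0.07 of its mean.

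Genes that work with these enzymes did not pass the test either. Of 52 listed genes, 51 were tested and 0 passed the adjusted threshold, 0 had an unadjusted p under 0.05, and 21 estimates were positive and 30 negative. DESeq2 and limma-voom gave 0 past the adjusted threshold as well. In 2 of the 51, every Space library was above every Ground library, against 1.61% of all genes tested. In 0 of the 51 the reverse held, against 1.98%. The 2 genes were Smug1, at 11.1 ± 0.417 against 11.9 ± 0.589 CPM, and Neil2, at 40.6 ± 0.465 against 42.0 ± 0.933 CPM (Ground and Space, SD, n = 3 each). Their log2 fold changes were 0.10 (SE 0.11) and 0.049 (SE 0.065), and both were named for this separation after their values were seen.

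Among 8 maintenance partners, the median log2 fold change was -0.017, from 0.0092 for Usp7, the deubiquitinase of UHRF1 and DNMT1, to -0.15 (SE 0.38) for Dppa3, which shields DNA from UHRF1. Dppa3 had 11.6 ± 4.33 CPM in Ground and 10.5 ± 4.60 CPM in Space (SD, n = 3 each). The 11 tested partners and guides of de novo methylation had a median of -0.0030, from 0.051 (SE 0.088) for Kdm1b, a histone demethylase needed for oocyte imprints, to -0.065 (SE 0.17) for Spocd1, a factor of piRNA-directed methylation. For 8 genes from families of methyl-CpG binding proteins the median was -0.0097, from 0.013 (SE 0.065) for Mbd1 to -0.39 (SE 0.26) for Zbtb4, which had 337 counts in all. The 15 TET cofactors and repair genes had a median of 0.031, from 0.11 (SE 0.17) for Gadd45g, a stress-induced adaptor linked to demethylation, to -0.17 (SE 0.21) for Neil1, a glycosylase. The 9 genes of methyl donor supply had a median of 0.0057, with the lowest estimate, -0.020 (SE 0.10), for Shmt2, which feeds carbon units into this supply. All 5 medians were within 0.05 of zero, close to the -0.0020 over all genes tested.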

How the data were processed

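Gene counts of 6 poly(A) RNA libraries of GS cells were used as deposited. The authors trimmed reads with cutadapt and aligned them to mm10 with HISAT2 and GENCODE M21. The submitters' processing notes also name HTSeq 2.0.2, without its role, and its strand and multimapping settings are not given in the sources used here. Labels and methods differ on library kit, sequencer and read layout. The counts were raw, with no pooling or scaling.

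Genes past filterByExpr (15104) entered edgeR 4.0.16 (R 4.3.3), using TMM scaling and the 2-sided quasi-likelihood F test, Space against Ground, without a block. Benjamini-Hochberg adjustment covered all genes tested. SE is the log2 fold change divided by the square root of F, and log2 CPM for likeness used a prior count of 2. Exon lengths and positions came from GENCODE M21 and promoters from RefSeq. Genes named were the 9 chosen ones, the highest and lowest of each list, and the 3 genes most like each of the 3 most variable members. 1 gene selected by this rule is not reported here. Genes overlapping a member, Dnmt3c, and Bcl6b, Etv5, Nanos2, Dazl, Smug1 and Neil2 were named outside the rule, the last 6 after their values were seen, and cell type markers to check the cells. Members and lists were chosen with earlier results of these data known. Alternatives were RLE and total-count scaling, other filters, DESeq2 1.42.0, limma-voom (limma 3.58.1), a replicate block and leaving out libraries or mitochondrial genes. Only the edgeR fit was tested on simulated counts, drawn independently for each library. Genes as low as Dnmt3l, Tet1 and Tet2 were not among those given a change.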

Additional observations from a re-analysis of the deposited data

How the results depend on the processing

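The counts of genes, of the 9 enzymes and of listed genes past the adjusted threshold were 0 in all 16 alternatives. At an unadjusted p under 0.05, edgeR gave 92 genes, total-count scaling 75, no filter 192, DESeq2 45 and limma-voom 88. Of 135 estimates for the 9 genes, 120 kept their direction and 15 reversed. Total-count scaling, which moved the median of all genes to 0.033, reversed Uhrf1 to 0.031, Dnmt3b to 0.0056 and Tdg to 0.017, and leaving out both libraries numbered 2 moved Tdg to 0.051. Leaving out 1 library in turn gave -0.0053 to 0.062 for Dnmt1, -0.071 to 0.069 for Uhrf1, -0.063 to 0.19 for Dnmt3a, -0.081 to 0.034 for Dnmt3b and -0.073 to 0.049 for Tdg, so the sign of these 5 estimates depended on single libraries. Dnmt3l, Tet1, Tet2 and Tet3 kept their sign in all 15 alternatives each, and the cause of the reversals was not tested.

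No label says whether same-numbered libraries share more than a number. Their deviations from the group means, over the most variable genes tested, correlated at -0.48, 0.28 and -0.60. Deviations within a group cancel out, so these values are tied to those given above for Ground-1 with Space-3 and Ground-3 with Space-1. With a replicate block, 63 genes had an unadjusted p under 0.05, 0 passed the adjusted threshold, and the log2 fold change of Tet2 was 0.79 (edgeR, unadjusted p 0.0599). Counting error was 0.223 log2 beside a pooled SD of 0.337 for Tet1 and 0.258 beside 0.354 for Tet2, at 21 to 55 counts per library, whereas for Dnmt3l it was 0.205 beside 0.704.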
